A study of Homo sapiens with 12 samples.

Results

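STING_YT cells are WI-38 cells, an established line of human embryonic lung fibroblasts, that were transfected with siRNAs against YAP and TAZ (siYT) and with siRNAs against STING. They were compared with STING cells, which received the same STING siRNAs and a control siRNA, named siAS in the labels. The question was what loss of the YAP and TAZ transcripts changes in fibroblasts whose STING transcript is low as well. These 4 of the 12 libraries of the series, 2 per group, were picked by their labels, and every gene above the filter entered the comparison. The STING siRNAs are common to both groups. Beside it stand YT cells (siYT and siAS) against control cells (siAS alone), and cGAS_YT cells (siYT and siRNAs against cGAS) against cGAS cells (cGAS siRNAs and siAS), again with 2 libraries per group. The siRNAs were delivered with Lipofectamine RNAi-MAX, and the libraries were read from the 3' ends of messenger RNA. Whether the replicates of a group were separate cultures is not given by the labels, and p-values therefore reflect the spread among these libraries alone, which may be technical. In such bulk libraries fewer cells of a kind and less RNA per cell cannot be told apart.

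YAP and TAZ are coactivators of transcription that carry no DNA-binding domain of their own and act mainly through the TEAD factors. Kinases of the Hippo pathway can keep them in the cytoplasm. YAP and TAZ are mostly cytoplasmic in cells that are crowded, rounded or on a soft surface. Spread cells under tension hold them in the nucleus, where they drive genes of proliferation, the actin cytoskeleton and the pericellular matrix. STING is an adaptor in the membrane of the endoplasmic reticulum. It is switched on by the cyclic dinucleotide that cGAS makes on double-stranded DNA in the cytosol, and it signals through TBK1 and IRF3 to interferon genes and through NF-kB to inflammatory genes.

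The 12 libraries held between 17790774 and 20650727 reads. Across genes, on the log2(CPM + 1) scale, the STING_YT replicates correlated at r = 0.995, with 25 genes more than 2-fold apart, and the STING replicates at 0.995, with 32. The YT replicates were the least alike of the 6 groups, with r = 0.987 and 249 such genes. YAP1 stood at 12.6 and 16.1 CPM in STING_YT libraries, against 94.7 and 82.2 CPM in STING libraries, which left 16.2%. WWTR1, the gene of TAZ, stood at 12.7 and 11.4 CPM in STING_YT libraries, against 102 and 99.2 CPM in STING libraries, which left 12.02%. Both transcripts were low in both STING_YT libraries, with no overlap between the groups (YAP1, chromosome 11, 102110461 to 102233423, and WWTR1, chromosome 3, 149517235 to 149736714, GRCh38). TMEM173, the gene of STING (chromosome 5, 139475534 to 139482935), stood at 1.28 and 1.93 CPM in STING_YT libraries, against 1.79 and 1.77 CPM in STING libraries (-0.10 ± 0.16, adjusted p = 0.651). The 2 groups overlapped and lay far below the 24.5 and 23.6 CPM of the control libraries. The cGAS gene MB21D1 was at 4.89 and 4.78 CPM in STING_YT libraries, against 5.46 and 4.67 CPM in STING libraries, also overlapping.

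Fibroblast markers were present. Of 17 fibroblast markers tested, 6 were higher in STING_YT cells and 1 was lower. Of all genes tested, 19.1% were higher and 19.8% lower. COL1A1, the gene of the main collagen of fibroblasts (named here for its level after its values were seen), was at 21145 and 19004 CPM in STING_YT libraries, against 16224 and 16361 CPM in STING libraries. The limb and heart field factor gene TBX5, active in lung fibroblasts, rose (0.90 ± 0.14), as did the mesenchymal factor TWIST1 (0.86 ± 0.10), and S100A4, a calcium-binding protein of motile fibroblasts, fell by 0.80 ± 0.13. Of 28 markers of epithelial, endothelial, blood, neural and muscle cells 8 had values in the deposited data, and all 8 passed the filter. The epithelial keratins KRT15, KRT19 and KRT18 were lower in STING_YT cells, by 1.47 ± 0.30, 0.82 ± 0.18 and 0.71 ± 0.18 (KRT18 not called without STING_YT replicate 16, adjusted p = 0.0524), the endothelial TEK (0.56 ± 0.08) and the neuronal MAP2 (2.44 ± 0.20) were higher, and KRT8, CD68 and CD14 were not called. The defining markers EPCAM, PECAM1, PTPRC and RBFOX3 are among the 20 without a value in the deposited data. The summed level of the 8 was 130.5 and 122.6 CPM in STING_YT libraries, against 114.6 and 110.3 CPM in STING libraries, and their part in the results was not tested.

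**Figure D1:**
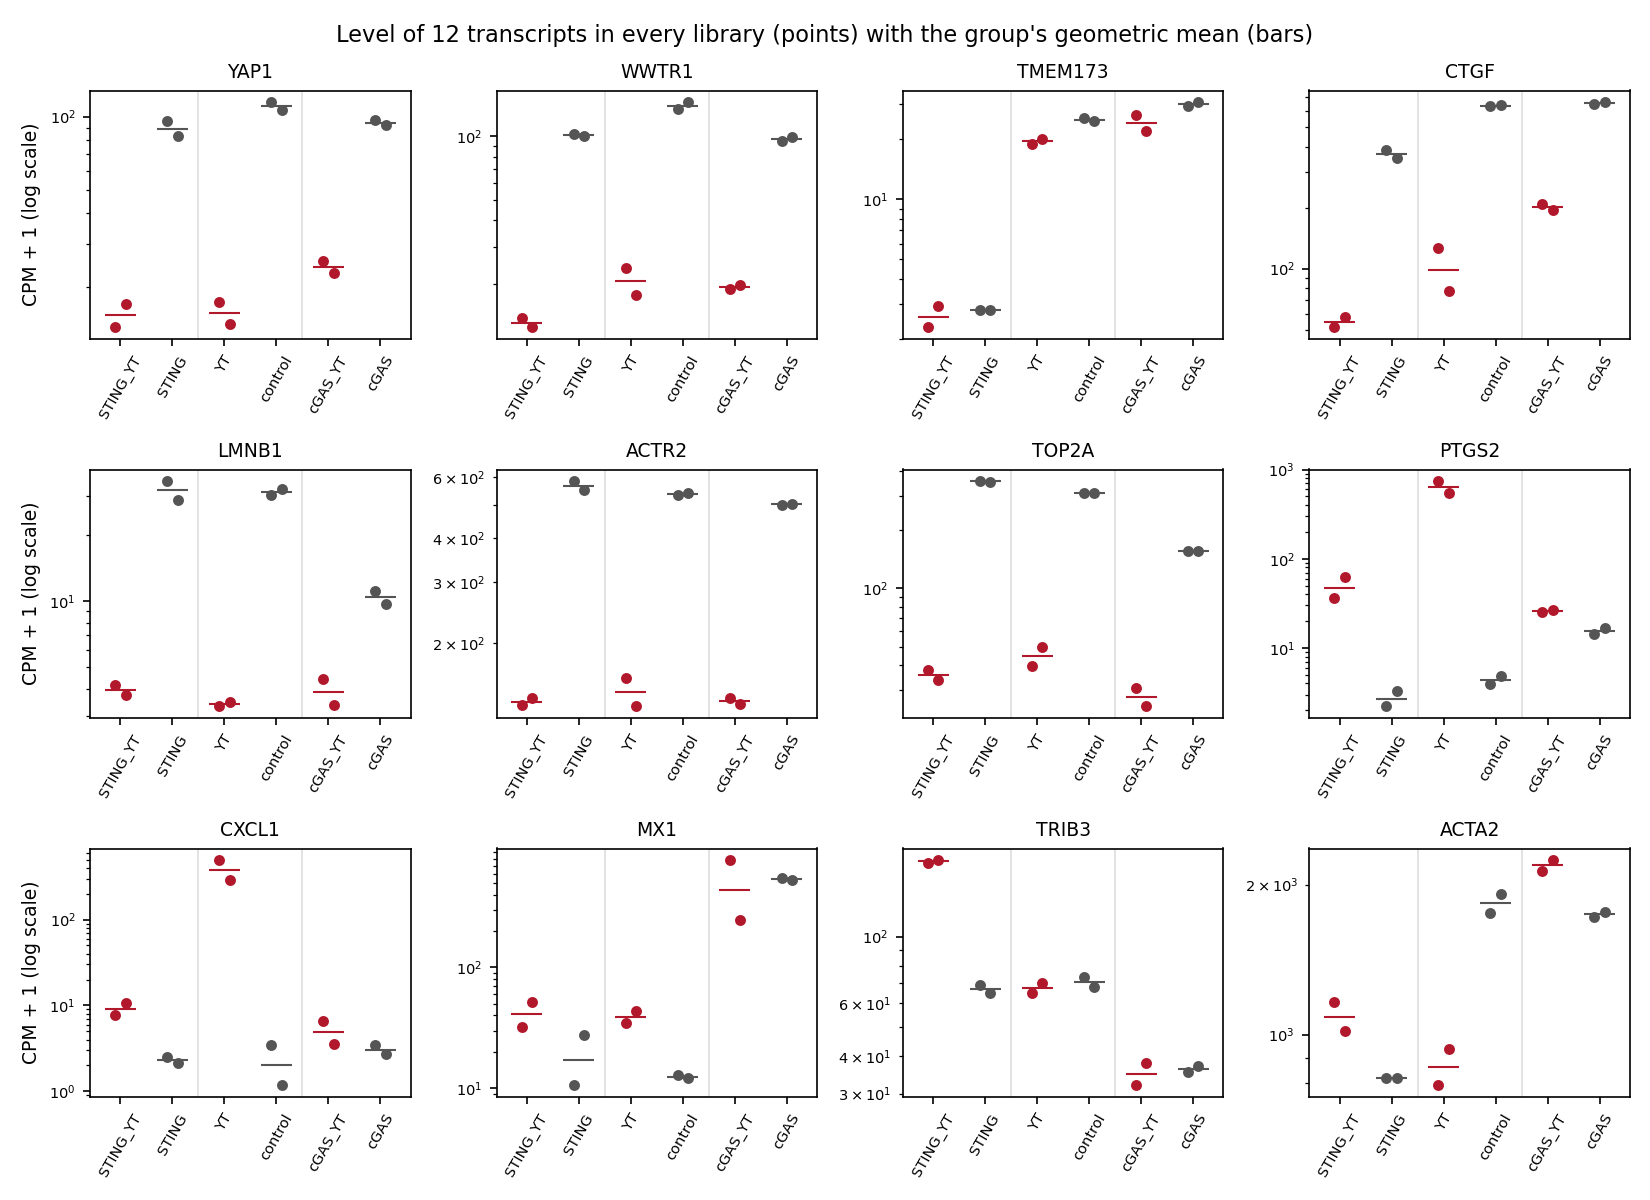
Level of 12 transcripts, CPM + 1 on a log axis, in all 12 libraries (points) with the geometric mean of each group (bars); groups that received YAP and TAZ siRNAs are red and their partners grey. YAP1, WWTR1, LMNB1, ACTR2 and TOP2A are lower in every red group, CXCL1 stands near 10 CPM or below outside the YT libraries, and TRIB3 is high only in the STING_YT libraries, at 175 and 179 CPM.

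A change below is the difference in mean log2(CPM + 1), STING_YT minus STING, with its standard error (n = 2 libraries per group). The standard error is moderated and rests on the spread within every group of the 12 libraries, not within STING_YT and STING alone. A change counts as a rise or a fall where the limma p, adjusted by Benjamini-Hochberg over 13894 genes, is under 0.05. For genes of low expression this scale understates the change. In STING_YT cells 2660 genes rose, 19.1% of those tested, and 2745 fell, 19.8%. On the log2(CPM + 1) scale changes of at least 2-fold were fewer: 504 genes rose (3.63%) and 631 fell (4.54%), and at 4-fold or more 51 rose and 139 fell. At 8-fold or more there were 5 rises and 26 falls. Large falls thus outnumbered large rises on this scale. Genes of low expression that changed as much in CPM can be missing from these counts. The share of calls near 20% in each direction is the background against which each gene list below is read. The median change over all genes was 0.03. Leaving out 1 library left 1731 (without STING_YT replicate 16) to 1936 genes higher and 1889 (without STING replicate 13) to 2142 lower.

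**Figure D2:**
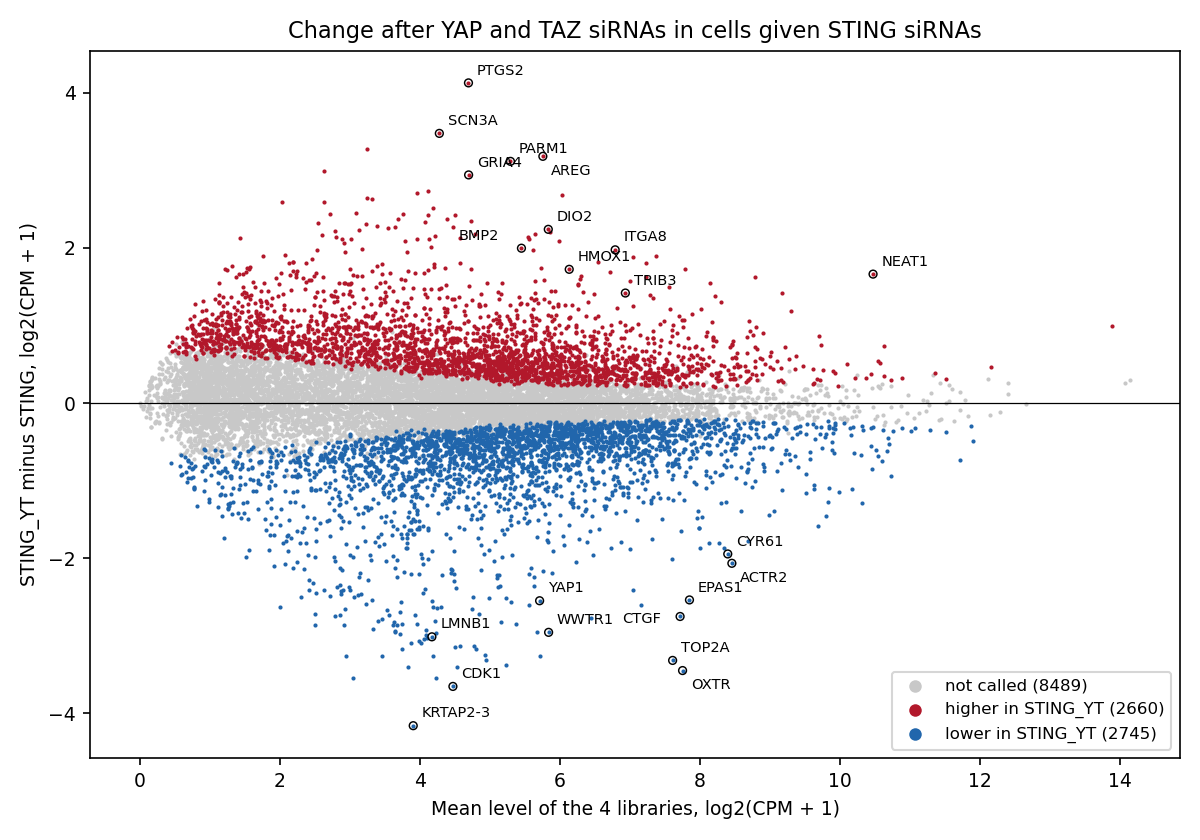
Change after YAP and TAZ siRNAs (STING_YT minus STING, log2(CPM + 1)) against the mean level of the 4 libraries, 1 point per gene; called rises are red, called falls blue and the rest grey, with a few named genes circled. Among the circled genes large falls (KRTAP2-3, CDK1, OXTR, TOP2A) and large rises (PTGS2, SCN3A, AREG) lie at middle levels.

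Known targets of YAP and TAZ fell. Of 25 listed targets, 20 fell and 3 rose, with a median change of -0.82. All 7 targets listed as secreted or matricellular fell, a group that also holds the transmembrane CRIM1. CTGF, a matricellular protein that is a classic TEAD target, was at 50.3 and 56.6 CPM in STING_YT libraries, against 383 and 349 CPM in STING libraries (-2.75 ± 0.15). CYR61, its close relative, was at 137 and 139 CPM in STING_YT libraries, against 547 and 523 CPM in STING libraries (-1.95 ± 0.13). CRIM1, a transmembrane BMP antagonist, stood at 148 and 129.7 CPM in STING_YT libraries, against 503 and 515 CPM in STING libraries (-1.87 ± 0.18). In each of these 3 genes the STING_YT libraries held less than 30% of the level in STING libraries, and replicates lay close together. IGFBP3, which binds insulin-like growth factors, fell by 2.6 ± 0.15, and CCDC80, a matrix protein, by 1.29 ± 0.09. Among nuclear and feedback targets ANKRD1, a muscle ankyrin repeat protein, was at 2.11 and 1.27 CPM in STING_YT libraries, against 14.2 and 15.9 CPM in STING libraries (-2.59 ± 0.21). AMOTL2, an angiomotin that holds YAP in the cytoplasm, fell by 1.4 ± 0.09, and PTPN14, a phosphatase that does the same, by 1.01 ± 0.08. Of 10 nuclear and feedback targets 6 fell and 2 rose (median -0.38), and of 8 membrane and signalling targets 7 fell and 1 rose (median -0.72): the receptor kinase gene AXL fell by 0.82 ± 0.08, the membrane repair gene MYOF by 0.98 ± 0.09 and ASAP1, an ARF GTPase regulator, by 0.93 ± 0.08. The forkhead gene FOXF2 went the other way, at 85.9 and 91.8 CPM in STING_YT libraries, against 44.6 and 45 CPM in STING libraries (0.97 ± 0.20).

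Promoters of 18 of the 25 targets were found in RefSeq (GRCh38.p14, from 250 bases before to 50 after the start), and 7 of them, 38.9%, held the TEAD motif GGAATG on either strand. Of the promoters of genes that fell 12.3% held it, of genes that rose 9.76%, of all 10332 tested genes with a promoter 10.8%, and of all 27305 RefSeq promoters 14%. The 2 shown carry it more than once and belong to targets whose fall was among the largest of the list. The promoters of IGFBP3 and AMOTL2, whose falls are given above, held none. The motif is in capitals, CTGF (chr6:131951323-131951622, minus strand, listed as CCN2) and ANKRD1 (chr10:90921038-90921337, minus strand):
CTGF: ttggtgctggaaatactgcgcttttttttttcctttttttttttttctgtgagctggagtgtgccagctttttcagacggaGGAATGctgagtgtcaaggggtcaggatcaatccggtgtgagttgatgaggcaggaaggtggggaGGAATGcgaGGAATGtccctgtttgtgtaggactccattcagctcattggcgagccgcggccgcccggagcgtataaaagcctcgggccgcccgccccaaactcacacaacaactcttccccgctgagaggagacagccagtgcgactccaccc
ANKRD1: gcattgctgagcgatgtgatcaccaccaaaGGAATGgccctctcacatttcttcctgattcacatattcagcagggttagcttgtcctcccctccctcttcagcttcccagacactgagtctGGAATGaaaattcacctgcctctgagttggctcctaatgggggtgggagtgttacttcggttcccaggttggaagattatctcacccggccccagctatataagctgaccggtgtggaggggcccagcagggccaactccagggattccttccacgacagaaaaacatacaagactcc
In CTGF it starts at -169, -104 and -95 from the transcription start, and in ANKRD1 at -220 and -128. A match is a description of the sequence and not a binding site. CYR61 had no entry in the table.

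In the Hippo pathway list 4 of 32 genes rose and 14 fell. Among its 8 coactivators and partners 5 fell and 1 rose, and there the falls of YAP1 and WWTR1 were set by the siRNAs. Of 16 kinases and adaptors 5 fell and 2 rose, and of 9 upstream genes 4 fell and 1 rose. VGLL3, a TEAD cofactor, was at 24.4 and 21 CPM in STING_YT libraries, against 68.3 and 61.9 CPM in STING libraries (-1.48 ± 0.12), and TEAD4 fell by 0.80 ± 0.19. NF2, the gene of merlin, an upstream activator of the pathway, was at 21.2 and 27 CPM in STING_YT libraries, against 68.4 and 63 CPM in STING libraries (-1.42 ± 0.12). The fall thus reached members that restrain YAP (NF2, AMOTL2, PTPN14) as well as partners that act with it.

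Genes of the nuclear lamina and of actin assembly fell strongly in single members. LMNB1, the gene of lamin B1 (chromosome 5, 126776623 to 126837020), was at 3.16 and 2.74 CPM in STING_YT libraries, against 34.3 and 27.8 CPM in STING libraries, a fall to 9.50% (-3.02 ± 0.18, adjusted p = 3.35e-09). TMPO, the lamin-binding protein LAP2, was at 15.5 and 12.9 CPM in STING_YT libraries, against 48 and 54.2 CPM in STING libraries (-1.78 ± 0.14), and LMNB2 fell by 1.19 ± 0.10. In both LMNB1 and TMPO the groups were far apart. Of 13 genes of lamins and the inner membrane 5 fell and 1 rose (none without STING replicate 14), whereas of 5 genes of the LINC complex, which ties the nucleus to the cytoskeleton, 3 rose and none fell, SUN2, which spans the inner membrane, by 0.42 ± 0.08. VPS4B, an ATPase that recycles the ESCRT-III filaments which seal membrane gaps, was at 109 and 117 CPM in STING_YT libraries, against 37.7 and 39.1 CPM in STING libraries (1.53 ± 0.09). It was 1 of 2 genes higher among 7 of that machinery. Of 33 genes of nuclear pores and transport 21 fell and 1 rose (none without STING replicate 13 or STING_YT replicate 16), among them the scaffold nucleoporin NUP93 (fell by 1.31 ± 0.12), the import carrier KPNA2 (by 1.44 ± 0.12) and RANGAP1, the activator of the Ran GTPase (by 1.16 ± 0.10).

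ACTR2 encodes the Arp2 subunit of the Arp2/3 complex, which nucleates branched actin (chromosome 2, 65227753 to 65271253). It stood at 132 and 137 CPM in STING_YT libraries, against 585 and 549 CPM in STING libraries (-2.07 ± 0.09). Of 9 genes of the complex 5 fell (3 without STING replicate 13) and none rose, and ARPC2 at -0.92 ± 0.08 came next to ACTR2. Another nucleator, the formin gene DIAPH3, was at 10.3 and 12.6 CPM in STING_YT libraries, against 49.5 and 44.7 CPM in STING libraries (-1.95 ± 0.15). Over the whole list of 37 actin assembly genes 16 fell and 4 rose. Without STING replicate 13 the falls numbered 10, and the rises were 1 or 2 whichever 1 of the 4 libraries was left out.

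Cell division genes fell together. All 67 genes of G2 and mitosis fell, with a median of -2.57, and of 52 genes of DNA replication 46 fell and none rose, with a median of -0.95. TOP2A, the topoisomerase that untangles chromosomes, was at 36.7 and 32.6 CPM in STING_YT libraries, against 356 and 353 CPM in STING libraries (-3.32 ± 0.11, adjusted p = 1.78e-11). The mitotic kinase gene CDK1 was at 2.0 and 2.54 CPM in STING_YT libraries, against 42.5 and 37.7 CPM in STING libraries (-3.66 ± 0.22). UBE2C, the ubiquitin-conjugating enzyme of the anaphase-promoting complex, was at 2.61 and 3.46 CPM in STING_YT libraries, against 43.7 and 39 CPM in STING libraries (-3.4 ± 0.17). These transcripts were left at 5.66% to 9.78% of their level in STING cells. The falls spanned the stages of mitosis, with the chromosomal passenger genes AURKB (-3.17 ± 0.14) and CDCA8 (-3.54 ± 0.17), the kinetochore genes CENPE (-2.95 ± 0.13) and NDC80 (-2.74 ± 0.19), and the midzone and cleavage genes PRC1 (-3.38 ± 0.19) and ANLN (-3.27 ± 0.16). In S phase the licensing factor CDC6 was at 1.44 and 1.58 CPM in STING_YT libraries, against 13.9 and 12.6 CPM in STING libraries (-2.5 ± 0.20), and RRM2, the small subunit of ribonucleotide reductase, fell by 3.31 ± 0.16, thymidine kinase TK1 by 2.21 ± 0.16, the flap endonuclease FEN1 by 1.39 ± 0.14 and the transcription factor E2F1 by 1.72 ± 0.20. FAM111B, a protease gene of S phase, was among the most lowered genes, at 0.278 and 0.305 CPM in STING_YT libraries, against 14.3 and 14 CPM in STING libraries (-3.55 ± 0.22).

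The CHR element, TTTGAA or TTCGAA on either strand, is the promoter element through which the DREAM complex represses late cell cycle genes in resting cells. Of the promoters of genes that fell 15% held it, of genes that rose 11%, of all tested genes 11.3% and of all RefSeq promoters 16.6%. Of 58 promoters of G2 and mitosis genes 43 held it, 74.1%, against 2 of 45 promoters of replication genes (4.44%). CCAAT, another element of these promoters, was in 72.4% of the G2 and mitosis promoters, 57.8% of the replication promoters, 36.7% of those of all tested genes and 35.7% of all. Shown are TOP2A (chr17:40417847-40418146, minus strand) and the cyclin gene CCNB2 (chr15:59104896-59105195, plus strand) and the Polo kinase gene PLK1 (chr16:23678639-23678938, plus strand), the last 2 chosen after their values were seen because the element lies near the start, with the CHR in capitals:
TOP2A: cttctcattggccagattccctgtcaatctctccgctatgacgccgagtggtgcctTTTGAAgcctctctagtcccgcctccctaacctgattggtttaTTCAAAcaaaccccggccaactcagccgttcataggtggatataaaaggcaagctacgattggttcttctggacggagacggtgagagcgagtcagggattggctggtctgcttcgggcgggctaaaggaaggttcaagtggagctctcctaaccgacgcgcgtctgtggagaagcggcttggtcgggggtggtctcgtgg
CCNB2: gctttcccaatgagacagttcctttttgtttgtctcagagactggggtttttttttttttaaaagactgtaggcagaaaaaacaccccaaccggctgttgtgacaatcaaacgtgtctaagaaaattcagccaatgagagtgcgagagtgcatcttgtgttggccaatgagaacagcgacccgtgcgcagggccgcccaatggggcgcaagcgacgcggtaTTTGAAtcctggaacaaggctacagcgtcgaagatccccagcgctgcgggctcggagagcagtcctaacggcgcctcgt
PLK1: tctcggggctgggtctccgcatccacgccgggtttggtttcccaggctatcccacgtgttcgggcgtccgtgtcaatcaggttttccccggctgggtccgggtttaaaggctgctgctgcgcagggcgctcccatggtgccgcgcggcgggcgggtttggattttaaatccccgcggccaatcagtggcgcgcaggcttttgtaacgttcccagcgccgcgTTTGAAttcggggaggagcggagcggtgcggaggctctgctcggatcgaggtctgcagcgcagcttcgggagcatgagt
In CCNB2 and PLK1 it starts at -29, and in TOP2A at -194 and, on the other strand, at -151. The promoters of AURKB and LMNB1, which also fell, held no CHR at the start searched. CCNB2 was at 2.66 and 2.08 CPM in STING_YT libraries, against 29.3 and 25.4 CPM in STING libraries, and PLK1 at 6.77 and 6.35 CPM in STING_YT libraries, against 52.2 and 45.7 CPM in STING libraries, which leaves 8.68% and 13.4%.

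Genes around the cell cycle engine moved in both directions. Of 7 genes of CDK inhibitors 4 rose and 1 fell, each rise by less than 1 on the log2 scale: CDKN1C (p57) was at 55.1 and 51 CPM in STING_YT libraries, against 27.1 and 25.7 CPM in STING libraries (0.98 ± 0.13), CDKN2B (p15) rose by 0.93 ± 0.13, CDKN1B (p27) by 0.59 ± 0.11 and CDKN1A (p21) by 0.38 ± 0.10, the last not called without STING_YT replicate 15 (0.34). The G1 drivers CCND1 (cyclin D1) and CDK6 fell by 1.08 ± 0.09 and 1.12 ± 0.09. Of 19 genes of homologous recombination and the Fanconi pathway 15 fell and none rose, RAD51AP1 by 2.83 ± 0.19 and FANCD2 by 1.88 ± 0.24, while of 15 genes of mismatch repair, excision repair and end joining 4 fell. Of 28 p53 targets 17 rose and 4 fell, with a median of 0.38. BBC3 (PUMA), which starts apoptosis, was at 428 and 429 CPM in STING_YT libraries, against 166 and 163 CPM in STING libraries (1.38 ± 0.10). GDF15, a stress cytokine, was at 422 and 479 CPM in STING_YT libraries, against 186 and 178 CPM in STING libraries (1.3 ± 0.10), and TP53INP1, a cofactor of p53, rose by 0.91 ± 0.09. The excision repair genes DDB2 and XPC rose by 0.77 ± 0.10 and 0.38 ± 0.08, and ZMAT3, an RNA-binding target of p53, fell by 1.47 ± 0.08. Without STING_YT replicate 16 or STING replicate 13 the p53 targets that fell numbered 2, as they did without STING_YT replicate 15. The rises were at least 14 whichever 1 of the 4 libraries was left out.

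**Figure D3:**
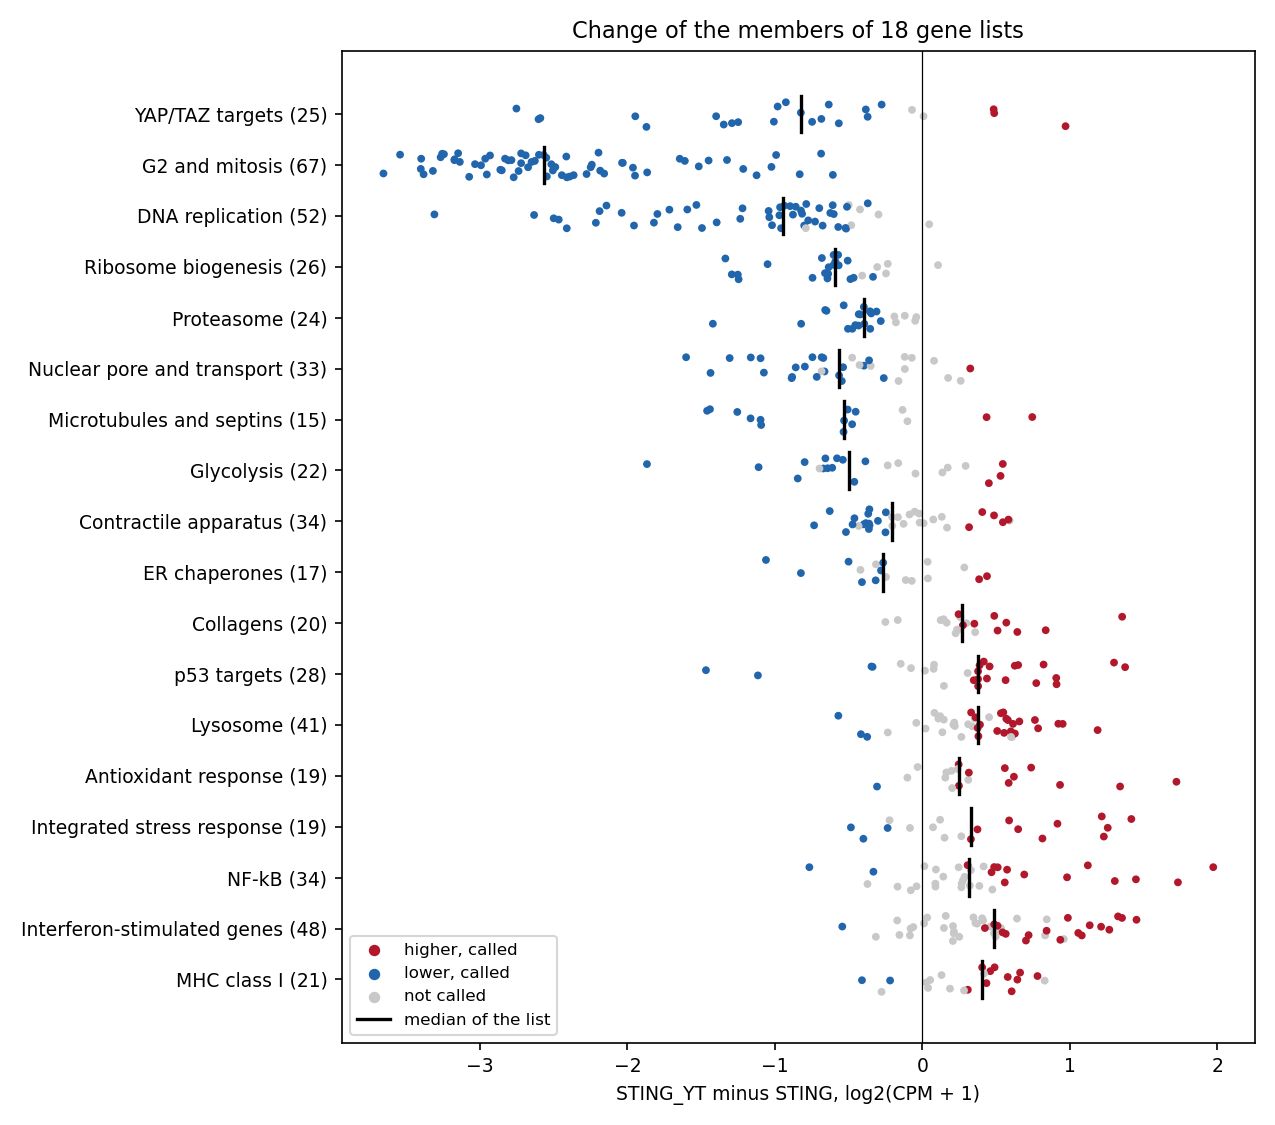
Change (STING_YT minus STING, log2(CPM + 1)) of the tested members of 18 gene lists, 1 point per gene, red for called rises, blue for called falls and grey for the rest; black bars are medians and numbers in brackets the genes tested. All 67 genes of G2 and mitosis lie left of 0, and the ribosome biogenesis and proteasome lists hold no called rise.

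Genes of biosynthesis fell as well. Of 26 nucleolar genes of ribosome biogenesis 21 fell and none rose (median -0.60), among them the pseudouridine synthase gene DKC1, at 49.6 and 54.9 CPM in STING_YT libraries, against 126 and 124 CPM in STING libraries (-1.25 ± 0.10), the helicase gene DDX21 (-1.05 ± 0.09) and RRS1 (-1.34 ± 0.15). Their regulator MYC was at 4.44 and 5.54 CPM in STING_YT libraries, against 13.3 and 12.9 CPM in STING libraries (-1.24 ± 0.31), a fall not called without STING_YT replicate 15 (adjusted p = 0.0518). Of 24 proteasome subunits 19 fell and none rose (median -0.39), PSMB2 by 1.42 ± 0.11. Of 15 tubulin and septin genes 11 fell and 2 rose (1 without STING_YT replicate 15), with the alpha-tubulin genes TUBA1B at 492 and 455 CPM in STING_YT libraries, against 1318 and 1289.9 CPM in STING libraries (-1.46 ± 0.10), and TUBA1C at -1.44 ± 0.10; these are close copies between which 3' reads may have been split. Of 22 genes of glycolysis 12 fell and 3 rose: LDHA, lactate dehydrogenase, was at 45.7 and 44 CPM in STING_YT libraries, against 167 and 166 CPM in STING libraries (-1.87 ± 0.12), and ENO1, enolase, fell by 1.11 ± 0.10. EPAS1, the hypoxia factor HIF-2 alpha, fell too, at 74.4 and 59.9 CPM in STING_YT libraries, against 393 and 393 CPM in STING libraries (-2.54 ± 0.09, adjusted p = 2.69e-11). Ribosomal protein genes changed less: 14 of 46 fell and none rose, with a median of -0.21, and the falls numbered 3 without STING replicate 13 or STING_YT replicate 16, 5 without STING_YT replicate 15 and 7 without STING replicate 14.

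Lysosomal, efflux and antioxidant genes rose more often than they fell. Of 41 lysosomal genes 20 rose and 3 fell (1 without STING replicate 13), with a median of 0.38. NPC1, which carries cholesterol out of lysosomes, was at 32.4 and 34.6 CPM in STING_YT libraries, against 14.3 and 13.9 CPM in STING libraries (1.19 ± 0.13). The chloride transporter gene CLCN7 rose by 0.95 ± 0.12, the protease gene CTSK by 0.92 ± 0.10 and the hexosaminidase gene HEXA by 0.79 ± 0.11. Of 6 cholesterol efflux genes 5 rose, with ABCA1 at 82.7 and 93.2 CPM in STING_YT libraries, against 37.8 and 33.3 CPM in STING libraries (1.28 ± 0.12), while of 23 genes of sterol synthesis and uptake 4 rose (2 without STING_YT replicate 16) and 6 fell. Of 21 autophagy genes 7 rose and 5 fell (median -0.08), and without STING replicate 14 or STING_YT replicate 16 the rises numbered 3, and without STING replicate 13 or STING_YT replicate 15 the falls numbered 2. SQSTM1 (p62), an autophagy receptor, rose by 0.86 ± 0.08 and the autophagy kinase gene ULK1 by 0.87 ± 0.09. Of 19 antioxidant genes under NRF2, 10 rose and 1 fell, not called whichever 1 of the 4 libraries was left out. The heme oxygenase gene HMOX1 was at 109 and 105 CPM in STING_YT libraries, against 33.9 and 29.5 CPM in STING libraries (1.72 ± 0.13). GCLC, which starts glutathione synthesis, was at 68.5 and 74.4 CPM in STING_YT libraries, against 29.5 and 25.7 CPM in STING libraries (1.34 ± 0.10), and GPX4, which detoxifies lipid peroxides, rose by 0.93 ± 0.08.

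The integrated stress response, which ATF4 runs when amino acids or protein folding fail, was higher in several of its target genes. Of 19 listed genes 10 rose and 3 fell, of which 1 fell without STING replicate 13, STING_YT replicate 15 or STING_YT replicate 16. TRIB3, a pseudokinase target of ATF4 (chromosome 20, 362835 to 397559), was at 175 and 179 CPM in STING_YT libraries, against 67.7 and 63.7 CPM in STING libraries (1.42 ± 0.10, adjusted p = 1.32e-08). DDIT3 (CHOP) was at 101 and 99.3 CPM in STING_YT libraries, against 40.8 and 42 CPM in STING libraries (1.26 ± 0.09). DDIT4, an inhibitor of mTORC1, was at 109 and 104 CPM in STING_YT libraries, against 45.7 and 44.5 CPM in STING libraries (1.22 ± 0.12). All 3 were more than 2-fold higher in STING_YT cells with replicates close together. ATF3 and SESN2 rose by 1.23 ± 0.14 and 0.65 ± 0.09; ATF4 itself (named after its values were seen) was not called, at 630.2 and 570.2 CPM in STING_YT libraries, against 544 and 535 CPM in STING libraries. Of 13 amino acid transporter genes 7 rose and 3 fell. SLC6A15, a carrier of branched-chain amino acids, was at 11.7 and 15.3 CPM in STING_YT libraries, against 2.36 and 1.77 CPM in STING libraries (2.23 ± 0.24), the cystine carrier gene SLC7A11 rose by 0.56 ± 0.10 and the leucine carrier gene SLC7A5 fell by 0.58 ± 0.10. Chaperones of the endoplasmic reticulum did not follow: of 17 genes 7 fell and 2 rose (4 fell without STING replicate 13 or STING_YT replicate 15, and 1 rose without STING replicate 14 or either STING_YT replicate), and HSPA5 (BiP), their most abundant luminal chaperone, was at 514 and 509 CPM in STING_YT libraries, against 1081 and 1053 CPM in STING libraries (-1.06 ± 0.08).

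For this group the difference between YAP/TAZ effects was tested: the change in STING_YT cells minus the change in YT cells (relative to control), and minus the change in cGAS_YT cells (relative to cGAS). The pairs share no library. YAP1 changed by -2.55 with STING siRNAs, by -2.83 with control siRNA and by -1.97 with cGAS siRNAs. WWTR1 changed by -2.96, -2.76 and -2.32 in the same order. Neither difference from control siRNA was called (limma adjusted p = 0.42 and 0.57). The difference from cGAS siRNAs was called for WWTR1 (-0.64, adjusted p = 0.0435). For YAP1 it was not (-0.58, adjusted p = 0.0836). Whether unequal loss of these transcripts contributes to the differences below was not tested. TRIB3 was at 63.7 and 69 CPM in YT libraries, against 72.5 and 66.8 CPM in control libraries, and at 30.9 and 36.9 CPM in cGAS_YT libraries, against 34.3 and 36.1 CPM in cGAS libraries. It was thus called in the STING background alone, and the differences were 1.49 ± 0.14 (adjusted p = 6.15e-06) and 1.48 ± 0.14 (adjusted p = 3.78e-05). Of the 19 stress response genes the difference from the effect with control siRNA was positive in 8 and negative in 3, and that from the effect with cGAS siRNAs positive in 7 and negative in none. Without cGAS replicate 8 the 7 became 4, and the 3 negative ones became 0 without STING replicate 13, either STING_YT replicate or control replicate 1, and 1 without control replicate 2. Over all genes the first difference was positive in 3.35% and negative in 4.53%, and the second in 1.64% and 3.53%. DDIT4 had differences of 1.14 ± 0.16 and 1.33 ± 0.16, HMOX1 of 1.08 ± 0.19 and 1.27 ± 0.19, GPX4 of 0.86 ± 0.11 and 0.94 ± 0.11, and SLC7A11 of 0.69 ± 0.14 and 1.08 ± 0.14, all called. With a constant prior the first difference of SLC7A11 was not called (adjusted p = 0.0609). For the chaperones the first difference was negative in 8 of 17, with HSPA5 at -0.96 ± 0.12 and SDF2L1, a stress-induced chaperone component, at -1.59 ± 0.19.

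**Figure D4:**
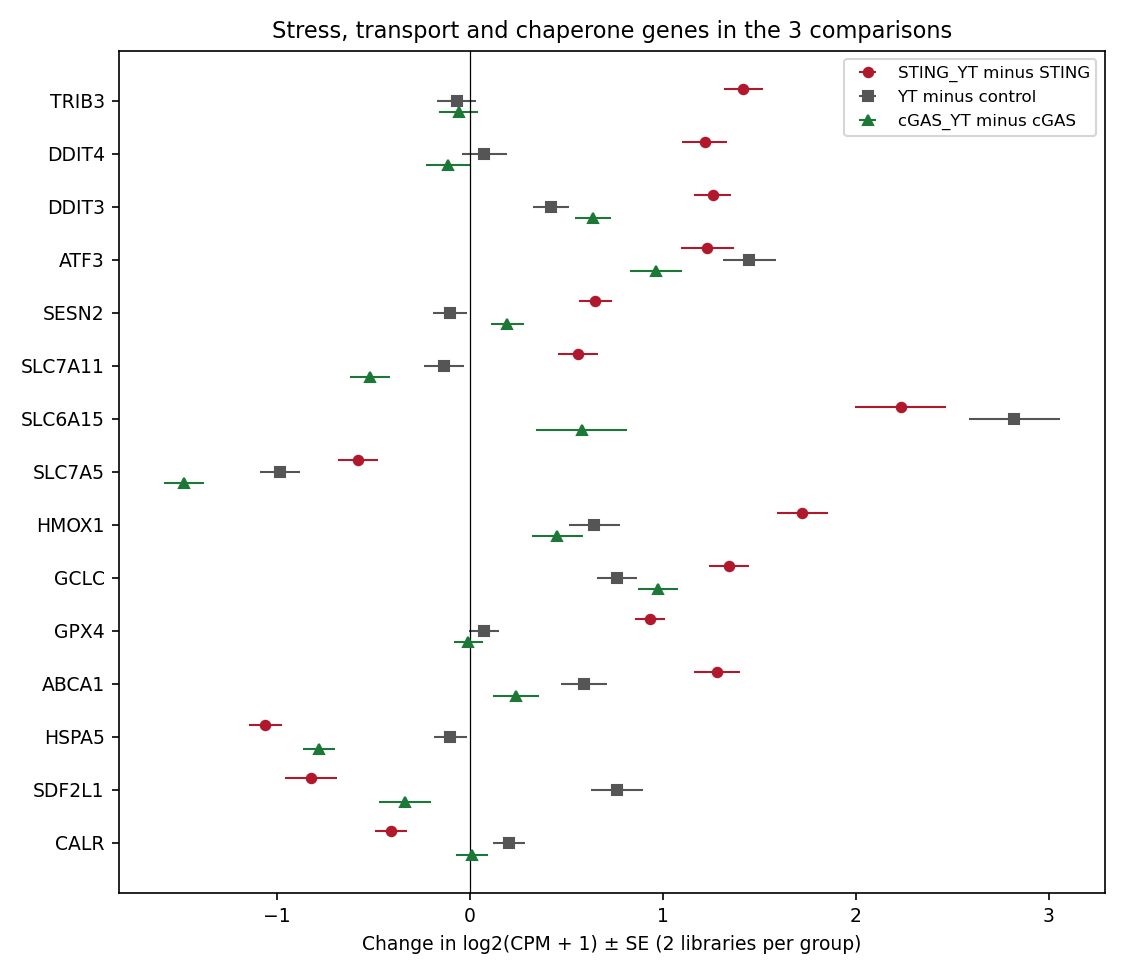
Change in log2(CPM + 1) with its SE for 15 genes of the stress response, amino acid transport, antioxidant defence, efflux and chaperones: STING_YT minus STING (red circles), YT minus control (grey squares) and cGAS_YT minus cGAS (green triangles). TRIB3, DDIT4 and HMOX1 lie to the right with STING siRNAs and near 0 or below 0.7 in the other pairs, whereas HSPA5 and SDF2L1 lie furthest left with STING siRNAs.

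Matrix genes rose more often than they fell. Of 57 genes 20 rose and 6 fell, and of 20 collagens 9 rose and none fell. COL14A1, a fibril-associated collagen, was at 13.7 and 11.3 CPM in STING_YT libraries, against 3.62 and 4.99 CPM in STING libraries (1.36 ± 0.19). COL3A1, a fibril collagen, was at 1816 and 1761 CPM in STING_YT libraries, against 1256 and 1253 CPM in STING libraries (0.51 ± 0.11), and COL15A1 rose by 0.84 ± 0.13. The basement membrane laminin gene LAMB1 was at 888 and 862 CPM in STING_YT libraries, against 360.5 and 407 CPM in STING libraries (1.19 ± 0.09), and the proteoglycan genes VCAN and FMOD rose by 0.98 ± 0.11 and 1.34 ± 0.20. Among the falls, LOX, which cross-links collagen, was at 130.3 and 129.7 CPM in STING_YT libraries, against 382 and 352 CPM in STING libraries (-1.49 ± 0.11), and THBS1, a matricellular protein, fell by 0.88 ± 0.10. Of 18 metalloproteinases and inhibitors 11 rose and 5 fell, with ADAM19 at 0.59 ± 0.07, and TIMP3 and MMP1, an inhibitor and a collagenase, fell by 0.66 ± 0.08 and 0.75 ± 0.14. In the plasminogen system 4 of 7 fell, the urokinase receptor gene PLAUR by 1.23 ± 0.10. The matrix rises numbered 12 or 13 whichever 1 of the 4 libraries was left out, those of collagens 5 without STING replicate 14 or STING_YT replicate 15, and those of metalloproteinases and inhibitors 5 (without STING replicate 13) to 7.

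Genes of the contractile apparatus fell in part. Of 34 genes 15 fell and 5 rose, with a median of -0.20; without STING replicate 13 the falls numbered 7, and without STING_YT replicate 16 they numbered 6, and the rises numbered 3 without either of these or STING_YT replicate 15. ACTA2, smooth muscle actin (chromosome 10, 88935074 to 88991339), was at 1160.2 and 1014 CPM in STING_YT libraries, against 819 and 817 CPM in STING libraries (0.41 ± 0.10), and at 790.1 and 934 CPM in YT libraries, against 1753 and 1915 CPM in control libraries. The rise with STING siRNAs was not called without STING_YT replicate 15 (0.31, adjusted p = 0.0746). With control siRNA ACTA2 fell (-1.09 ± 0.10), and the difference was 1.5 ± 0.14 (adjusted p = 6.15e-06). The STING libraries lay below the control libraries, and the STING_YT and YT levels were closer. TPM1, tropomyosin, fell by 0.46 ± 0.08 with a difference of 0.70 ± 0.12. FHL2, a LIM domain protein of actin fibres, was at 143 and 127 CPM in STING_YT libraries, against 178 and 168 CPM in STING libraries, with a difference of 1.18 ± 0.13. Over the list the difference was positive in 13 of 34 and negative in none (8 without STING replicate 14 or STING_YT replicate 15). From the effect with cGAS siRNAs it was negative in 3 and positive in none, and the 3 numbered 0 to 2 without 1 library. In focal adhesions 6 of 15 integrins rose and 3 fell, whereas 3 of 20 plaque genes rose and 9 fell. ITGA8, an alpha integrin of mesenchymal cells, was at 172 and 179 CPM in STING_YT libraries, against 44.6 and 43.2 CPM in STING libraries (1.98 ± 0.11), and ITGA6, a laminin receptor, fell by 1.33 ± 0.10. The plaque protein genes ZYX and LPP fell by 0.78 ± 0.08 and 1.22 ± 0.11, and CAV2 and CAV1, which form caveolae, by 1.61 ± 0.08 and 0.94 ± 0.08.

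Growth factor genes changed in both directions. Of 13 BMP genes 5 rose and 2 fell: BMP2 was at 60.6 and 77.3 CPM in STING_YT libraries, against 14.3 and 18.8 CPM in STING libraries (2.0 ± 0.13). BMP4 was at 452 and 386 CPM in STING_YT libraries, against 142 and 144 CPM in STING libraries (1.54 ± 0.12). Both ligands thus rose, while NOG, an antagonist, fell by 2.13 ± 0.20. Of 14 TGF-beta ligands, storage proteins and receptors 8 fell and 1 rose, with TGFB2 at -1.35 ± 0.17 and FST, an activin inhibitor, at -1.61 ± 0.10. Of 20 genes of EGF receptors, their ligands and MAPK feedback 6 rose and 6 fell, and the difference from the effect with control siRNA was negative in 11 and positive in none. Among the ligands AREG was at 82.6 and 111 CPM in STING_YT libraries, against 10.2 and 9.12 CPM in STING libraries (3.18 ± 0.17), EREG rose by 1.47 ± 0.22 and NRG1 by 0.79 ± 0.16, and HBEGF fell by 1.53 ± 0.16. PDGFD, a ligand of the beta receptor of PDGF, was at 27.3 and 26.7 CPM in STING_YT libraries, against 4.88 and 4.24 CPM in STING libraries (2.33 ± 0.14). MET, the receptor of hepatocyte growth factor, was at 6.77 and 6.45 CPM in STING_YT libraries, against 39.5 and 33.3 CPM in STING libraries (-2.29 ± 0.15), and FGF5 fell by 2.15 ± 0.16. In the Wnt pathway the antagonist genes DKK1 and SFRP1 fell by 2.87 ± 0.20 and 1.11 ± 0.08, and the nuclear effectors LEF1 and TCF7 rose by 1.27 ± 0.13 and 1.39 ± 0.20. OXTR, the oxytocin receptor, was at 40.8 and 30.3 CPM in STING_YT libraries, against 399 and 389 CPM in STING libraries (-3.45 ± 0.11), one of 3 falls among 22 genes of G protein receptors and second messengers, of which 11 rose, with the sphingosine phosphate receptor gene S1PR2 at 1.45 ± 0.11 and PDE5A, which breaks down cyclic GMP, at 1.42 ± 0.10.

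PTGS2, the inducible cyclooxygenase, had the largest rise among genes averaging 5 CPM or more (chromosome 1, 186671791 to 186680427). It was at 35 and 61.1 CPM in STING_YT libraries, against 1.21 and 2.31 CPM in STING libraries (4.13 ± 0.23, adjusted p = 1.39e-09), with replicates 15 and 16 apart but far above both STING libraries. Of 14 prostaglandin genes 8 rose and 3 fell. The rises included the synthases PTGES (1.37 ± 0.16) and TBXAS1 (1.97 ± 0.12), the constitutive cyclooxygenase PTGS1 (0.55 ± 0.08) and the phospholipase gene PLA2G4A (1.8 ± 0.28); without STING_YT replicate 16 the rises numbered 5, and without STING replicate 13 or STING_YT replicate 15 none of the 3 falls was called. PTGS2 was at 749 and 539 CPM in YT libraries, against 2.96 and 3.86 CPM in control libraries. The effect with STING siRNAs minus that with control siRNA was -3.05 ± 0.33 (adjusted p = 2.03e-05), and minus that with cGAS siRNAs it was 3.38 ± 0.33 (adjusted p = 3.78e-05).

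NF-kB genes rose less with STING siRNAs than with control siRNA. Of 34 genes 13 rose and 2 fell in STING_YT cells, with a median of 0.32, whereas 31 rose and none fell in YT cells, with a median of 1.6, where 20.6% of all genes were higher and 20.9% lower. The difference was negative in 23 of the 34 and positive in none. In cGAS_YT cells, where 15% of all genes were higher and 12.7% lower, 6 rose and 3 fell (median 0.02), and the difference from the effect with cGAS siRNAs was positive in 5 and negative in none. The 5 numbered 1 without either cGAS replicate, cGAS_YT replicate 10, either STING replicate or STING_YT replicate 16, and none with a constant prior. CXCL1, a neutrophil chemokine, was at 6.66 and 9.81 CPM in STING_YT libraries, against 1.52 and 1.13 CPM in STING libraries (1.97 ± 0.40), and at 496 and 292 CPM in YT libraries, against 2.49 and 0.17 CPM in control libraries, a difference of -5.59 ± 0.56 (adjusted p = 1.19e-05). CXCL8, another neutrophil chemokine, was at 1.67 and 2.08 CPM in STING_YT libraries, against 1.05 and 1.07 CPM in STING libraries, and at 493 and 146 CPM in YT libraries, against 0.727 and 1.65 CPM in control libraries, a difference of -6.5 ± 0.56 (adjusted p = 3e-06). In both chemokines the YT libraries stood above 100 CPM and the 4 libraries with STING siRNAs below 10 CPM. TNFAIP3 (A20), which damps NF-kB, was at 16.8 and 26.4 CPM in STING_YT libraries, against 14.1 and 11.4 CPM in STING libraries, a rise not called without STING replicate 14 or STING_YT replicate 16 (0.55 and 0.38 without them, 0.69 ± 0.18 with all 4), with a difference of -2.79 ± 0.26, and NFKBIA, the inhibitor IkB alpha, rose by 0.49 ± 0.09 with a difference of -1.71 ± 0.13. BIRC3, an apoptosis inhibitor, fell by 0.77 ± 0.15. Without STING_YT replicate 16 the rises numbered 7, and without STING replicate 13 or STING_YT replicate 15 the falls numbered 1. Reads of CXCL1 and CXCL3, which are near-identical in sequence, may have been split between them.

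Secreted factors and their receptors followed the same order, with the lowest median in cGAS_YT cells (0.12), where 6 of 36 rose and 4 fell. Of 36 genes 14 rose and 2 fell in STING_YT cells, with a median of 0.41 (9 rises without STING_YT replicate 16), and 22 rose and 3 fell in YT cells, with a median of 1.06; the difference was negative in 18 and positive in 2 (1 to 5 without 1 library). The difference from the effect with cGAS siRNAs was positive in 4 and negative in 1, and the 4 numbered 0 to 2 without 1 library and none with a constant prior. IL24 was at 2.55 and 3.15 CPM in STING_YT libraries, against 0.21 and 0.0536 CPM in STING libraries (1.77 ± 0.25), and IL1A and IL1B rose by 1.11 ± 0.24 and 1.11 ± 0.28. Their differences were -4.49 ± 0.35, -4.28 ± 0.34 and -4.36 ± 0.40, all called, that of IL24 not with edgeR on the recovered reads (adjusted p = 0.0871). These cytokine transcripts stood below 4 CPM in both STING_YT libraries. IL11, a cytokine of stromal cells, fell by 1.19 ± 0.18 with STING siRNAs, with a difference of -1.72 ± 0.26. IL6 was not called, at 2.33 and 1.63 CPM in STING_YT libraries, against 5.04 and 4.24 CPM in STING libraries (-0.93 ± 0.53, adjusted p = 0.181, and 0.00118 with only the 4 libraries in the fit). The receptor genes IL1R1 and IL6R rose by 1.52 ± 0.10 and 1.36 ± 0.11, and IL7R fell by 1.72 ± 0.11. VCAM1, an adhesion molecule for leukocytes, rose by 1.12 ± 0.12 with a difference of -0.98 ± 0.17. Of 12 genes of complement and coagulation 6 rose and 2 fell, and C1R and C1S, proteases of the first component, rose by 1.12 ± 0.11 and 0.90 ± 0.09.

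Interferon-stimulated genes rose in part, and the 2 libraries of each group differed in them. Of 48 genes 18 rose and 1 fell in STING_YT cells, with a median of 0.49. MX1, an antiviral GTPase, was at 31 and 51 CPM in STING_YT libraries, against 9.5 and 26.3 CPM in STING libraries (1.27 ± 0.41, adjusted p = 0.022). It was not called without STING replicate 13 (0.58) or STING_YT replicate 16 (0.92), nor with a constant prior (adjusted p = 0.0934) or with DESeq2 (0.125). IFI44L was at 59.8 and 73.7 CPM in STING_YT libraries, against 16.6 and 38.5 CPM in STING libraries (1.35 ± 0.27, and 0.77 without STING replicate 13). IFIT1, another antiviral effector, was at 22.4 and 31 CPM in STING_YT libraries, against 15.6 and 26.3 CPM in STING libraries, with overlap and no call (0.36 ± 0.30, adjusted p = 0.359). STING replicate 14 was higher than STING replicate 13 in all 3 genes. The count of rises was 7 without STING replicate 13 and 8 without STING_YT replicate 16. PLSCR1 and IRF1, whose replicates lay closer, rose by 1.21 ± 0.16 and 1.04 ± 0.08. In YT cells 24 of the 48 rose and 1 fell (median 0.52), and the difference was negative in 1 gene and positive in none; in cGAS_YT cells 2 rose and 2 fell. The difference from the effect with cGAS siRNAs was positive in 2 and negative in none, and the 2 became 24 without cGAS_YT replicate 9, 6 without STING replicate 14, 1 without STING replicate 13, cGAS_YT replicate 10 or either cGAS replicate, and 0 without STING_YT replicate 16. Of 21 genes of MHC class I and peptide loading 10 rose and 2 fell, and the immunoproteasome subunit gene PSMB9 rose by 0.78 ± 0.17; 4 rose without STING replicate 13 and 5 without STING_YT replicate 16, and 1 fell without either STING replicate or STING_YT replicate 15. MHC class I genes are similar in sequence, so that reads may have been split. Among 6 DNA sensing genes ENPP1, which breaks down the product of cGAS outside cells, was at 5.55 and 5.79 CPM in STING_YT libraries, against 20.6 and 20.3 CPM in STING libraries (-1.69 ± 0.17), and DNASE2, the lysosomal nuclease, rose by 0.91 ± 0.10.

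Among genes not described above, the most raised of those averaging 5 CPM or more included ion channels and signalling proteins. SCN3A, a voltage-gated sodium channel, was at 35.7 and 33.4 CPM in STING_YT libraries, against 1.58 and 2.95 CPM in STING libraries (3.48 ± 0.22). GRIA4, a glutamate receptor subunit, was at 41.9 and 47.9 CPM in STING_YT libraries, against 4.31 and 5.69 CPM in STING libraries (2.94 ± 0.15). RAB39B, a Rab GTPase, was at 16.9 and 15.3 CPM in STING_YT libraries, against 1.1 and 0.483 CPM in STING libraries (3.27 ± 0.32). These 3 and PARM1 (3.12 ± 0.16) were all near or below 8 CPM in STING libraries. BMF, which promotes cell death on loss of attachment, rose by 2.73 ± 0.22, the secreted FGL2 by 2.68 ± 0.17, the semaphorin gene SEMA4D by 2.65 ± 0.17 and DIO2, which activates thyroid hormone, by 2.24 ± 0.11. NEAT1, the RNA that builds paraspeckles, was at 2063 and 2151 CPM in STING_YT libraries, against 416 and 1061 CPM in STING libraries (1.66 ± 0.28), with STING replicate 13 far below replicate 14 and a change of 0.99 without it. Among the most lowered, the keratin-associated KRTAP2-3 was at 0.722 and 0.457 CPM in STING_YT libraries, against 28.6 and 26.2 CPM in STING libraries (-4.16 ± 0.27), and its relative KRTAP1-5 fell by 3.27 ± 0.25; this family has near-identical members. MEST, an imprinted gene of the mesoderm, was at 19.2 and 18.2 CPM in STING_YT libraries, against 86.2 and 88.2 CPM in STING libraries (-2.16 ± 0.19).

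Set beside cells given the control siRNA, the YAP/TAZ effect with STING siRNAs had much in common. Across 13894 genes, which are not independent replicates, the changes of STING_YT against STING and of YT against control correlated at r = 0.742. Of the genes that rose in STING_YT cells 1617 also rose in YT cells, 60.8% of the first list and 56.4% of the second. Of those that fell 1847 also fell, 67.3% and 63.5%, and 41 and 55 went opposite ways. With cGAS_YT against cGAS the correlation was 0.747, 1369 genes rose in both (51.5% and 65.6%) and 1387 fell in both (50.5% and 78.8%). In all 3 comparisons 995 genes rose and 1096 fell, and 637 and 561 were called in the STING background alone, which by itself does not show that the effects differ.

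The difference from the effect with control siRNA was called in 465 genes as positive and in 630 as negative. Of the negative ones 223 rose in YT cells and were not called in STING_YT cells, and 120 rose in both. A further 145 fell in STING_YT cells only, 85 fell in both, and 55 fell in STING_YT cells and rose in YT cells. Of the positive ones 157 fell in YT cells and were not called in STING_YT cells, and 145 rose in STING_YT cells only. A further 73 fell in both, 43 rose in both, and 41 rose in STING_YT cells and fell in YT cells. CDC42EP3, an effector of the GTPase CDC42, had the largest positive difference among genes averaging 5 CPM or more. It was at 243 and 202 CPM in STING_YT libraries, against 345 and 341 CPM in STING libraries (-0.63 ± 0.09), and at 37.8 and 37.7 CPM in YT libraries, against 290.3 and 319.9 CPM in control libraries, which gives 2.35 ± 0.13 (adjusted p = 3.1e-08). CLDN11, a claudin of tight junctions, changed by -1.59 ± 0.09 with STING siRNAs and by -3.7 ± 0.09 with control siRNA, a difference of 2.11 ± 0.12. CYR61 changed by -3.52 ± 0.13 with control siRNA (difference 1.57 ± 0.19) and OXTR by -4.77 ± 0.11 (difference 1.32 ± 0.16), both larger falls than with STING siRNAs. Of the 25 YAP/TAZ targets the difference from the effect with control siRNA was positive in 8 and negative in 2. The 8 numbered 4 without STING replicate 13 and 5 without either STING_YT replicate, and the 2 numbered 4 without YT replicate 4 and 1 without control replicate 1, either STING replicate or either STING_YT replicate. RASL11B, a small GTPase, rose with STING siRNAs (1.52 ± 0.16) and fell with control siRNA (-0.77 ± 0.16), with a difference of 2.29 ± 0.23. Opposite directions the other way occurred in SERPINB2, a plasminogen activator inhibitor, which was at 1.5 and 2.08 CPM in STING_YT libraries, against 8.19 and 7.03 CPM in STING libraries (-1.63 ± 0.24), and at 8.19 and 5.76 CPM in YT libraries, against 0.83 and 1.42 CPM in control libraries (1.91 ± 0.24), a difference of -3.53 ± 0.33, and in the glucose transporter gene SLC2A3 (-0.84 ± 0.08 with STING siRNAs, 0.62 ± 0.08 with control siRNA, a difference of -1.46 ± 0.11). STC1, a secreted glycoprotein, rose in YT cells (3.44 ± 0.15), and the difference was -2.82 ± 0.21. The count of positive differences ranged from 209 without STING_YT replicate 15 to 1329 without YT replicate 3, and that of negative ones from 341 to 1210 without the same libraries.

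**Figure D5:**
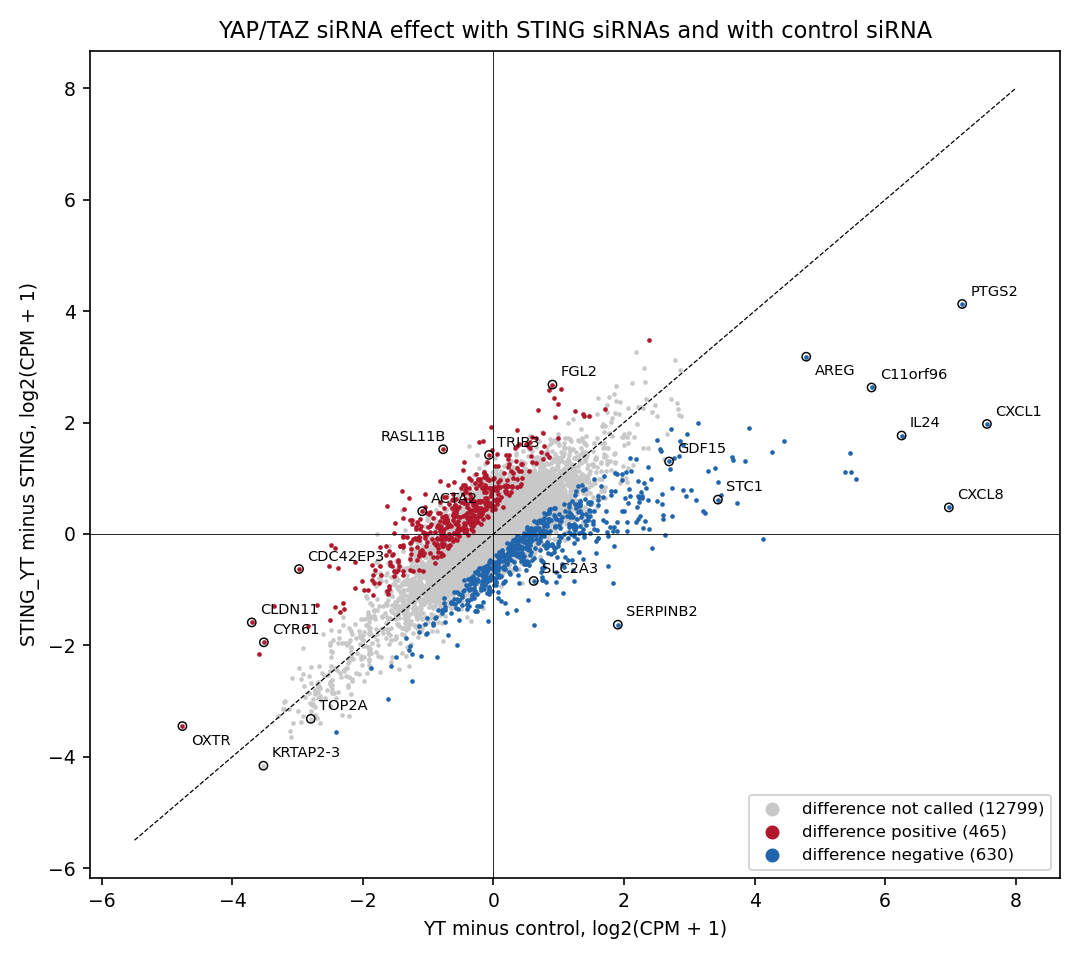
YAP/TAZ siRNA effect with STING siRNAs (vertical, STING_YT minus STING) against the effect with control siRNA (horizontal, YT minus control), both in log2(CPM + 1), 1 point per gene; red and blue mark called positive and negative differences, and the dashed line equal effects. CXCL8, CXCL1, IL24 and PTGS2 lie far right and below the line, while CDC42EP3, CLDN11 and RASL11B lie above it.

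Against the effect with cGAS siRNAs the difference was positive in 228 genes and negative in 490. Cell division genes were among them: 29 of 67 genes of G2 and mitosis had a negative difference and none a positive one, with CCNA2, cyclin A2, at 3.66 and 2.13 CPM in STING_YT libraries, against 22.7 and 20.7 CPM in STING libraries, and at 8.12 and 6.85 CPM in cGAS_YT libraries, against 13.1 and 12.9 CPM in cGAS libraries (-1.84 ± 0.31, adjusted p = 0.00255). The fall was larger with STING siRNAs, and STING libraries stood above cGAS libraries. The 29 genes numbered 13 without STING replicate 13, and 15 to 19 without STING replicate 14, STING_YT replicate 16, cGAS_YT replicate 9 or either cGAS replicate. LMNB1 had a difference of -1.59 ± 0.26, and of 25 YAP/TAZ targets 8 were negative and none positive, among them CRIM1 (-1.32 ± 0.26), ANKRD1 (-1.56 ± 0.30) and AMOTL2, which was not called in cGAS_YT cells (-0.12 ± 0.09, difference -1.27 ± 0.13). Without STING replicate 13 these 8 numbered 5, and with a constant prior that of CRIM1 was not called (adjusted p = 0.0757). OXTR was at 179 and 163 CPM in cGAS_YT libraries, against 307 and 319.6 CPM in cGAS libraries, the most negative difference among genes averaging 5 CPM or more (-2.58 ± 0.16, adjusted p = 3.15e-07). SEMA6A, a semaphorin, and MEST followed with -2.17 ± 0.22 and -2.09 ± 0.26. TMEM97, the sigma-2 receptor, fell with STING siRNAs (-1.04 ± 0.13) and rose with cGAS siRNAs (1.0 ± 0.13), a difference of -2.04 ± 0.18. Positive differences included DIO2 (2.15 ± 0.16), ANGPTL4, a lipase inhibitor (2.38 ± 0.25), and AREG (1.98 ± 0.24), all 3 higher in STING_YT cells; the difference of AREG from the effect with control siRNA was negative (-1.61 ± 0.24). Without 1 library the positive differences numbered 81 (without STING_YT replicate 16) to 168 and the negative ones 175 (without STING replicate 13) to 371. Both differences were positive in 43 genes and negative in 100, and they share the STING_YT and STING libraries.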

How the data were processed

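The 12 libraries hold 3' end reads of WI-38 RNA. Per the submitters' processing notes reads were aligned to hg38 with STAR 2.5.3a, counted with featureCounts and processed with edgeR; the strand setting is not given in the sources used here, so overlapping and antisense genes cannot be told apart. The authors deposited a signal per gene named CPM, which is counts scaled by TMM-adjusted library size: every value (100% within 0.01) was a whole number of reads, in a table of 13937 genes.

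Groups were taken from the labels. Tests ran with limma 3.58.1 in R 4.3.3 on log2(CPM + 1), with a prior that depends on intensity, for the 13894 genes reaching 1 CPM in 2 or more libraries, in 1 fit of all 12 libraries (6 residual degrees of freedom). The fit had been planned for CPM; the same test was used. Differences between effects were contrasts of 4 groups. Alternatives were pseudocounts of 0.25 and 4, other filters, median-of-ratios scaling, a constant prior, only the groups of a contrast, and edgeR 4.0.16 and DESeq2 1.42.0 on the recovered reads, which gave 2606 and 2464 genes higher and 2712 and 2719 lower; each replicate was also left out. The procedure was tested on simulated data. Positions are from GENCODE 29, which held 12571 of the symbols (90.2%), and promoters from RefSeq, which matched 10349.

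Members and the 61 gene lists (1503 genes, 1424 tested) were chosen with earlier results of these data known. Genes named are the targeted genes, the 20 most raised and lowered with a mean of at least 5 CPM, the 12 most positive and negative in each difference, up to 5 of smallest p in each list and role, and CTGF, CYR61, ANKRD1, ACTR2, LMNB1, IL6, CXCL8, MX1, IFIT1, PTGS2 and CDKN1A. A selection of these is given, some are not reported here, and other named genes are marked as chosen after their values were seen.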

Additional observations from a re-analysis of the deposited data

Results flagged for a closer look

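The effect of YAP and TAZ siRNAs with STING siRNAs differed from that with control siRNA, by the limma test of the difference itself, in 465 genes with a positive and 630 with a negative value. The positive differences given above were TRIB3 at 1.49 ± 0.14, DDIT4 at 1.14 ± 0.16, HMOX1 at 1.08 ± 0.19, GPX4 at 0.86 ± 0.11, SLC7A11 at 0.69 ± 0.14, ACTA2 at 1.5 ± 0.14, TPM1 at 0.70 ± 0.12, FHL2 at 1.18 ± 0.13, CDC42EP3 at 2.35 ± 0.13, CLDN11 at 2.11 ± 0.12, CYR61 at 1.57 ± 0.19, OXTR at 1.32 ± 0.16 and RASL11B at 2.29 ± 0.23. Negative ones were found in the inflammatory genes CXCL1 (-5.59 ± 0.56), CXCL8 (-6.5 ± 0.56), IL24 (-4.49 ± 0.35), IL1A (-4.28 ± 0.34), IL1B (-4.36 ± 0.40), IL11 (-1.72 ± 0.26), PTGS2 (-3.05 ± 0.33), TNFAIP3 (-2.79 ± 0.26), NFKBIA (-1.71 ± 0.13) and VCAM1 (-0.98 ± 0.17). Outside that group they were found in AREG (-1.61 ± 0.24), HSPA5 (-0.96 ± 0.12), SDF2L1 (-1.59 ± 0.19), SERPINB2 (-3.53 ± 0.33), SLC2A3 (-1.46 ± 0.11) and STC1 (-2.82 ± 0.21).

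Against the effect with cGAS siRNAs the same test called 228 positive and 490 negative differences. WWTR1 itself was among the negative ones (-0.64), so its transcript fell less with cGAS siRNAs, and the part of this in the other differences was not tested. Positive values stood in PTGS2 (3.38 ± 0.33), AREG (1.98 ± 0.24), DIO2 (2.15 ± 0.16), ANGPTL4 (2.38 ± 0.25), TRIB3 (1.48 ± 0.14), DDIT4 (1.33 ± 0.16), HMOX1 (1.27 ± 0.19), GPX4 (0.94 ± 0.11) and SLC7A11 (1.08 ± 0.14). Negative values stood in OXTR (-2.58 ± 0.16), SEMA6A (-2.17 ± 0.22), MEST (-2.09 ± 0.26), TMEM97 (-2.04 ± 0.18), CCNA2 (-1.84 ± 0.31), LMNB1 (-1.59 ± 0.26), ANKRD1 (-1.56 ± 0.30), CRIM1 (-1.32 ± 0.26) and AMOTL2 (-1.27 ± 0.13). PTGS2, AREG and OXTR lay between the other backgrounds: PTGS2 and AREG rose less than with control siRNA and more than with cGAS siRNAs, and OXTR fell less than with control siRNA and more than with cGAS siRNAs. TRIB3, DDIT4, HMOX1, GPX4 and SLC7A11 were positive in both differences, which share the STING_YT and STING libraries and are not independent of each other.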

How the results depend on the processing

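No paired analysis was possible because the replicate numbers are not shared between groups. With a constant prior the negative differences from control siRNA numbered 392, and those from cGAS siRNAs 106 positive and 255 negative; with only the groups of the contrast in the fit the differences from cGAS siRNAs numbered 600 and 1170, and genes lower in YT cells 1903. Among gene lists in STING_YT cells, that fit gave 30 interferon-stimulated genes higher (18 in the fit of all 12 libraries), 32 matrix genes higher (20), 12 fibroblast markers higher (6) and 34 ribosomal protein genes lower (14, and 5 with a constant prior). The constant prior gave 8 positive differences from control siRNA in contractile genes (13), 4 positive differences from cGAS siRNAs in the stress response (7) and 4 negative ones in YAP/TAZ targets (8). Negative differences from cGAS siRNAs in G2 and mitosis numbered 49 with a pseudocount of 4 (29). The cause was not tested. Leaving out 1 library gave 1731 to 1936 genes higher in STING_YT cells and 1889 to 2142 lower, 209 to 1329 positive and 341 to 1210 negative differences from control siRNA, and 81 to 168 positive and 175 to 371 negative from cGAS siRNAs. It gave 1177 to 1554 genes higher and 1079 to 1519 lower in cGAS_YT cells. Single-gene values covered 178 genes for STING_YT against STING, many of them picked for a large change or a small p in these data. Such a choice favours stable calls. Of these 2313 values 2301 kept their direction and their side of the threshold. The change of TMEM173, not called in any of these fits, ranged between -0.29 (without STING_YT replicate 16) and 0.077 (without STING_YT replicate 15), and IL6 was called with only the groups of the contrast (adjusted p = 0.00118). Median-of-ratios scaling moved the median change of all genes to 0.02, against 0.03. With 2 libraries per group the smallest changes lie within the spread of replicates.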
